A study of Rattus norvegicus with 18 samples.

Results

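Dorsal root ganglia (DRGs) were compared between rats given a sham operation on the knee and rats given no procedure, to describe the response of the ganglion to the sham operation alone. The rats were chosen by the group in their sample labels, which gave 12 of the 18 sequenced rats, 6 sham and 6 naive, the other 6 having had a total knee arthroplasty (TKA). All were Sprague Dawley rats with 3 males and 3 females per group, and their age is not stated in the sources used here. Sham rats were anesthetized with isoflurane, the skin and fascia over the left patella were cut, and the skin was sutured, whereas naive rats had none of this. The left L3 and L4 DRGs were taken 24 h after the operation, under deep isoflurane in every group, and each rat gave 1 library. Sham and naive rats therefore differed by the anesthesia for surgery, the incision, and the sutures together, and the parts of these in a difference cannot be told apart.

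A DRG holds the cell bodies of the sensory neurons that carry touch, position, and pain from the limb to the spinal cord. Each neuron is wrapped by satellite glia and lies among Schwann cells, resident macrophages, vessels, and connective tissue. When their axons are cut in the periphery, these neurons are known to turn on transcription factors such as *Jun* and *Atf3*, growth genes, and secreted signals, and DRG cells can release the chemokine *Ccl2*, which draws monocytes.

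The counts were made per transcript rather than per gene, and 15153 of 41078 transcripts had enough counts to be tested. Total counts ranged from 20519013 to 22953863 in naive rats and from 20230562 to 24696431 in sham rats. Levels of a transcript are in CPM, its share of a library's counts with the 12 libraries scaled by TMM, and differences are written as log2 fold-changes of sham over naive rats. Markers of sensory neurons, satellite glia, and myelinating Schwann cells were present in every rat, including *Nefl* (12700.0 to 15870.0 CPM in naive and 12650.0 to 15200.0 CPM in sham rats), *Fabp7* (26.6 to 51.8 CPM in naive and 34.5 to 48.2 CPM in sham rats), and *Prx* (604 to 1104 CPM in naive and 792 to 1770.0 CPM in sham rats). Sex as labelled matched the counts: 3 transcripts summed to 3097 to 3800 counts in each rat labelled male and to at most 1 in each labelled female, and 1 transcript had 350 to 600 counts in each female and 0 in each male. Transcripts of skeletal muscle differed widely between rats and summed highest in sham rats 4 and 1 and naive rat 6, as given with the cell types below. Sham rat 4 stood apart on the second principal component (-92.3, with the other 5 sham rats between -1.67 and 24.7), and naive rat 6 and sham rat 5 on the third (65.3 and -47.2).

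Whole profiles of sham and naive rats were about as far apart as those of rats of one group. The median Euclidean distance of log2 CPM profiles between a naive and a sham rat was 104, against 101 between pairs of naive rats and 115 between pairs of sham rats. A pseudo-F statistic of these distances was 0.886, and an exact permutation test over all 924 splits of the 12 rats gave p = 0.781. Log2 fold-changes had a median of 0.01, and the middle 95% of them lay between -0.61 and 0.84. Precision followed the level: the median standard error was 0.68 for transcripts under 1 CPM, 0.34 from 1 to 10 CPM, 0.13 from 10 to 100 CPM, and 0.075 at 100 CPM and over.

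No single transcript was called in edgeR's quasi-likelihood F test (0 of 15153). A call needed a p under 0.05 after Benjamini-Hochberg adjustment and at least a 1.5-fold difference, and the lowest adjusted p was 0.648. At an unadjusted p under 0.05 in the same test were 625 transcripts (4.12% of those tested), 377 of them higher in sham rats (2.49%) and 248 lower (1.64%). This is below the share of 0.05 that such a threshold gives with no difference at all. With no prior on the fold-change, DESeq2 called 5 of 25055 transcripts (0.0200%), those of *Alkal2*, *Pak2*, *Ccl2*, *Erbb2*, and *Vgf*, and had 871 at an unadjusted p under 0.05. With a prior, DESeq2 called 0, since the 4 transcripts that passed its adjusted p (*Alkal2*, *Ccl2*, *Vgf*, and *Pak2*) had shrunken fold-changes from 1.28 to 1.496, and 719 had an unadjusted p under 0.05. The study, which used DESeq2 with thresholds of the same size, names *Ccl2* as the only transcript raised in sham over naive rats. The transcripts described next are those with the lowest p in the edgeR comparison, so their values are a description of the top of that list.

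**Figure D1:**
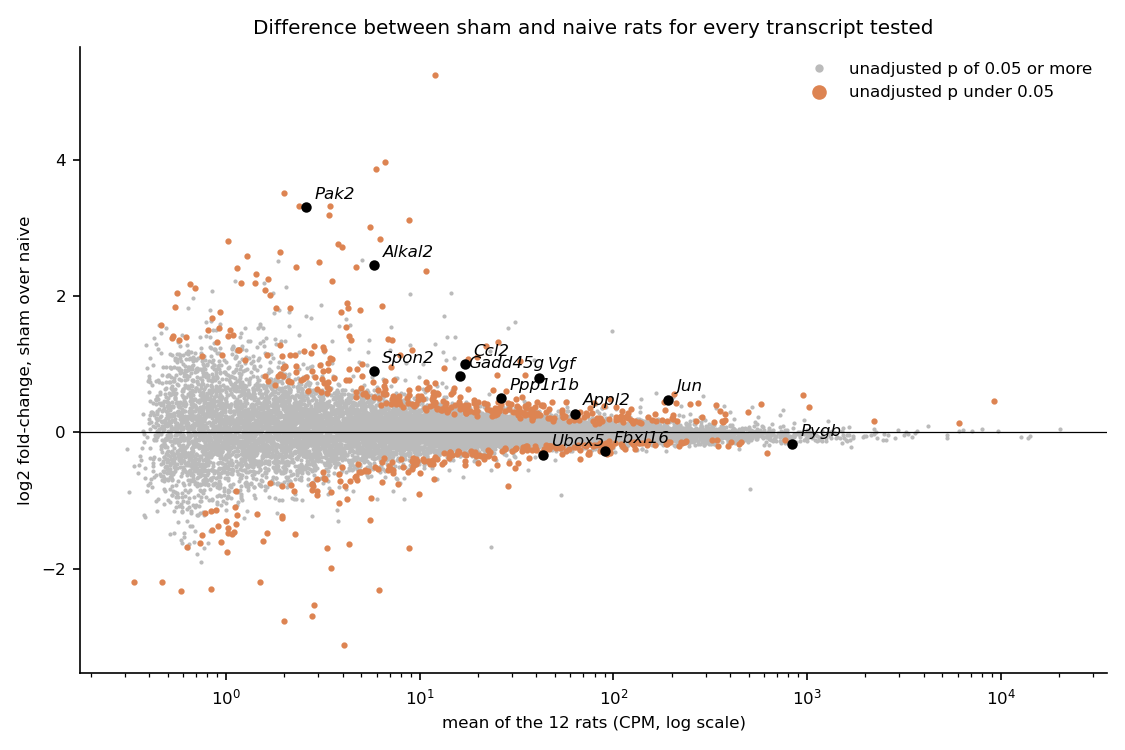
Log2 fold-change of sham over naive rats (y axis) against the mean level of the 12 rats in CPM (x axis, log scale) for the 15153 transcripts tested. The 625 transcripts at an unadjusted p under 0.05 are orange and 12 named ones black; *Alkal2*, *Ccl2*, and *Vgf* stand above most transcripts of similar level, and the scatter narrows as the level rises.

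*Alkal2* had the lowest p of the transcripts with a symbol that were higher in sham rats, followed by *Ccl2*, a *Pak2* transcript, and *Vgf*. *Alkal2*, a ligand of the receptor tyrosine kinases ALK and LTK, ranged from 0.302 to 4.16 CPM in naive rats (median 1.62) and 3.98 to 18.0 CPM in sham rats (median 9.20). Its ranges overlapped only through sham rat 1, the lowest sham rat, and naive rat 4, the highest naive rat, and the other 5 sham rats were above every naive rat. The log2 fold-change was 2.45 (SE 0.46), a fold-change of 5.48, with an unadjusted p of 7.89e-05 and an adjusted p of 0.648 in edgeR's quasi-likelihood test. Over the alternatives that left out 1 rat it ran from 2.19 to 2.89.

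*Vgf*, a secreted neuronal protein first known as a target of nerve growth factor and processed to neuropeptides, ranged from 28.2 to 33.9 CPM in naive rats (median 29.2) and 30.8 to 67.9 CPM in sham rats (median 54.1). Naive rats lay close together and sham rats spread widely, with sham rats 5, 2, and 3 at 64.6 CPM or more and sham rat 1 within the naive range. Its log2 fold-change was 0.80 (SE 0.16) with an unadjusted p of 1.73e-04 and an adjusted p of 0.656 in edgeR. The other 7 tested members of the list of secreted neuronal factors did not reach an unadjusted p of 0.05, and the median of all 9 was 0.03. *Calca*, which encodes the pain peptide CGRP, had 425 to 629 CPM in naive and 435 to 615 CPM in sham rats, or 0.03 on the log2 scale (SE 0.11, 95% interval -0.19 to 0.26).

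The promoters of *Alkal2* and *Vgf* are shown because both hold a letter match to the cAMP response element (CRE), a site bound by CREB-family factors. Each sequence is the 250 bases before the start site in the RefSeq promoter set (build GRCr8), 5′ to 3′ on the strand of the gene, with the match in capitals. *Alkal2* is at chr6:53223132-53223381 (plus strand) and *Vgf* at chr12:25277021-25277270 (minus strand).
*Alkal2*: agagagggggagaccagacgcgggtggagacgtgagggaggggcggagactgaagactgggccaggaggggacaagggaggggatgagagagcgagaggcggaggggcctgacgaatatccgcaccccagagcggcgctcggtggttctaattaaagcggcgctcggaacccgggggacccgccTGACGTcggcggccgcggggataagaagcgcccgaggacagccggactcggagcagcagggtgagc
*Vgf*: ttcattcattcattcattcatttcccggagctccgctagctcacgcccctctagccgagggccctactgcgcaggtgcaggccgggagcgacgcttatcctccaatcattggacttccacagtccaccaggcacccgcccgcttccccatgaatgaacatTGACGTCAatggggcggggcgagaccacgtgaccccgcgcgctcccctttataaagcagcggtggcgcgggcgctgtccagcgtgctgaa
The *Vgf* match is the full element TGACGTCA, 90 to 83 bases before the start, and the *Alkal2* match is TGACGT, which lies within the full element, 66 to 61 bases before it. Read on both strands, TGACGTCA was in 1.59% and TGACGT in 6.95% of all 33469 promoter windows of this length. Of the 20 symbols with the lowest p that were higher in sham rats, 14 matched an entry of this set, of which 1 held TGACGTCA and 2 held TGACGT, and 0 held TGAGTCA or TGACTCA, the letters of an AP-1 site, against 4.05% of all windows. The shorter TGACG, within the others, was in 4 of the 14 (*Alkal2*, *Iars1*, *Ncapd3*, and *Vgf*) and in 18.2% of all windows. These are matches of letters only, and binding was not measured.

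*Ccl2*, the chemokine that draws monocytes through the receptor CCR2, ranged from 9.18 to 14.2 CPM in naive rats (median 11.3) and 15.5 to 32.7 CPM in sham rats (median 22.6). No naive rat reached the lowest sham rat, a gap between groups that held for 10 of the 15153 transcripts (0.0660%), while 14 (0.0924%) had the opposite gap. Its mean was 11.4 ± 1.96 CPM in naive and 22.7 ± 6.85 CPM in sham rats (SD, n = 6), a fold-change of 1.996 and a log2 fold-change of 0.997 (SE 0.19, unadjusted p 8.56e-05, adjusted p 0.648 in edgeR). An exact permutation test of this transcript alone gave p = 0.00216, the smallest that 6 rats against 6 can give. Any transcript with such a gap gives this p. As *Ccl2* was named for its low p in these rats, this is no separate support. For a transcript without a difference, the same value is the chance of a gap in either direction. Of all transcripts with a symbol, 4.99% were higher and 2.13% lower at an unadjusted p under 0.05. Among the 12 tested of 46 listed chemokines, cytokines, and receptors, 3 were higher at this p and 1 lower, with a median log2 fold-change of 0.15. The other higher ones were receptors of inflammatory cytokines: *Il1r1*, of interleukin 1, had 3.08 to 5.78 CPM in naive and 5.30 to 7.18 CPM in sham rats, and *Tnfrsf1a*, of TNF, had 58.8 to 72.8 CPM in naive and 70.2 to 91.4 CPM in sham rats. *Cxcl13*, a chemokine of B cells, had 0.274 to 3.15 CPM in naive and 0.0855 to 0.890 CPM in sham rats (-1.60 on the log2 scale, SE 0.68, unadjusted p 0.0328).

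*Jun*, the AP-1 transcription factor known to rise in neurons with cut axons, ranged from 147 to 183 CPM in naive rats (median 158) and 179 to 280.5 CPM in sham rats (median 218). In 5 of 6 sham rats it was above every naive rat, and sham rat 1 was the exception. Its log2 fold-change was 0.48 (SE 0.11), a fold-change of 1.39, with an unadjusted p of 4.12e-04 and an adjusted p of 0.998 in edgeR. *Gadd45g*, a stress-induced growth arrest gene, ranged from 7.73 to 17.1 CPM in naive rats (median 11.3) and 14.3 to 27.8 CPM in sham rats (median 20.5), so that sham rats 1 and 4 lay within the naive range and the other 4 above it, and its log2 fold-change was 0.82 (SE 0.22, unadjusted p 0.00172). For *Alkal2*, *Ccl2*, *Vgf*, and *Jun* alike, sham rat 1 had the lowest level of the 6 sham rats.

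**Figure D2:**
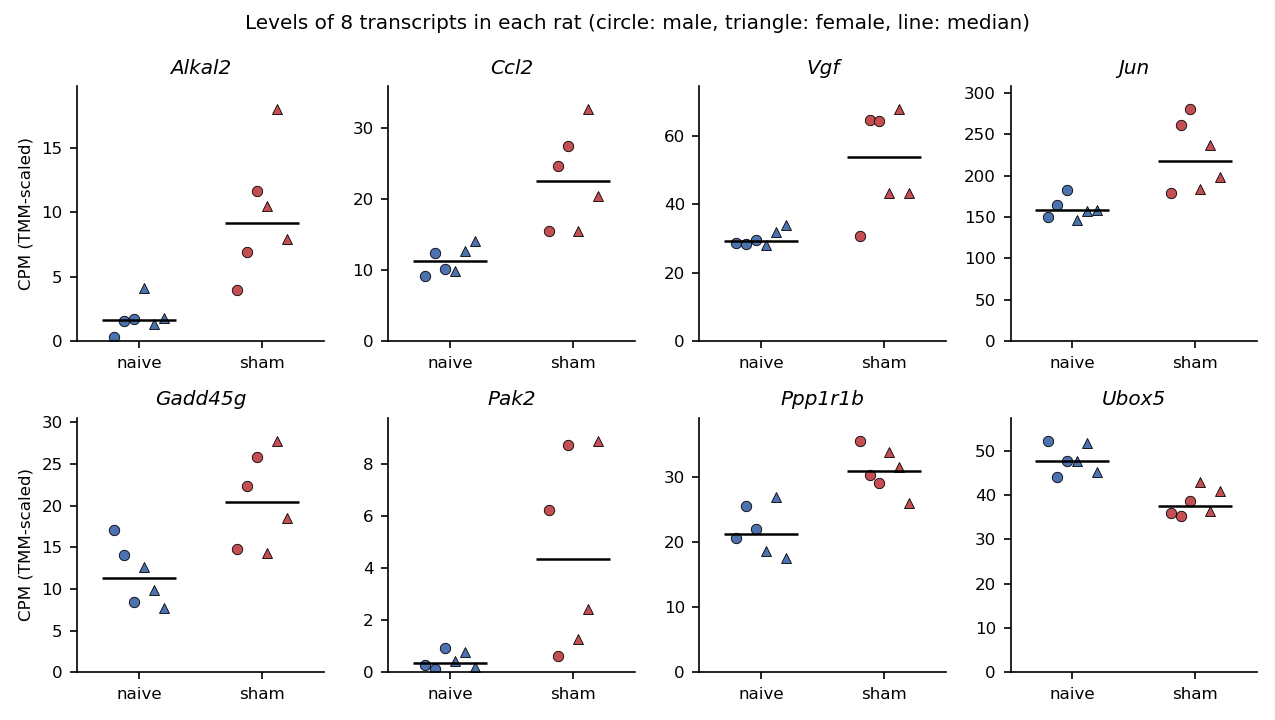
Level in CPM (y axis, from 0) of 8 transcripts in each naive (blue) and sham (red) rat, with circles for males, triangles for females, and a line at the median of the 6 rats. The ranges of *Ccl2* and *Ubox5* do not overlap, those of *Alkal2*, *Vgf*, and *Jun* overlap through sham rat 1, and *Pak2* is split among sham rats.

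The tested genes tied to axon injury mostly had positive log2 fold-changes. Of 43 listed axon injury and growth genes, 18 carried a symbol and 14 were tested, and *Atf3* was not among the 14. Of these 14, 13 had a positive log2 fold-change, 5 were higher at an unadjusted p under 0.05, and 0 were lower, with a median of 0.39. The share of all transcripts with a symbol that were higher at this p was 4.99%, and 2.13% were lower, and the count of every list is to be read beside these shares. Symbols came from shortened lists of published results that include these same rats, so a member that differed was more likely to carry a name, and the counts of this and the other lists describe named members only. Beside *Jun* and *Gadd45g*, the 5 were *Gadd45a* (33.0 to 49.0 CPM in naive and 31.5 to 67.0 CPM in sham rats), the neurite adhesion protein *Flrt3* (20.5 to 31.5 CPM in naive and 22.4 to 41.4 CPM in sham rats), and the transmembrane semaphorin *Sema6a* (10.6 to 15.6 CPM in naive and 11.8 to 19.5 CPM in sham rats). Their log2 fold-changes were 0.40 (SE 0.17), 0.42 (SE 0.15), and 0.33 (SE 0.15). Summed over the list, levels were 376 to 440.2 CPM in naive rats (median 400.0) and 441 to 633 CPM in sham rats (median 511), and the lowest sham rat, rat 4, lay just above the highest naive rat. *Jun* alone, with medians of 158 CPM in naive and 218 CPM in sham rats, made up a large part of these sums.

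Immediate early genes, which neurons and other cells turn on soon after a stimulus and turn off again, were mixed. Of 18 tested, 6 were higher at an unadjusted p under 0.05 and 0 lower, with a median log2 fold-change of 0.16, and 2 of the 6 were *Jun* and *Gadd45g* again. *Nr4a2*, an orphan nuclear receptor, had 4.08 to 5.74 CPM in naive and 5.43 to 8.60 CPM in sham rats (0.51 on the log2 scale, SE 0.18). *Fos* had 6.66 to 10.2 CPM in naive and 6.93 to 18.0 CPM in sham rats (0.496, SE 0.21), with 4 of 6 sham rats above every naive rat and sham rat 5 near the bottom of the naive range. *Klf2* and *Ier2* had log2 fold-changes of 0.64 (SE 0.26) and 0.38 (SE 0.14). The summed levels of the list overlapped, with 491 to 554 CPM in naive rats (median 525) and 552 to 714 CPM in sham rats (median 598).

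Genes known to answer circulating or local cytokines had positive log2 fold-changes in 18 of 24 and negative ones in 6. At an unadjusted p under 0.05, 5 were higher (2 without sham rats 4 and 5) and 0 lower, with a median log2 fold-change of 0.18. These were *Il1r1*, *Socs3*, an inhibitor of cytokine signaling (3.79 to 8.06 CPM in naive and 5.22 to 11.5 CPM in sham rats), the transcription factor *Cebpd* (19.4 to 38.4 CPM in naive and 25.5 to 49.5 CPM in sham rats), the metalloreductase *Steap4* (7.10 to 10.7 CPM in naive and 10.2 to 13.4 CPM in sham rats), and the transcriptional repressor *Bcl6* (23.6 to 38.0 CPM in naive and 29.4 to 49.5 CPM in sham rats). Their log2 fold-changes ran from 0.36 for *Steap4* to 0.64 for *Socs3*, each with groups that overlapped. The summed levels did not overlap, at 313 to 351 CPM in naive rats (median 329) and 352 to 413 CPM in sham rats (median 377), but the gap was narrow. Glucocorticoid-responsive genes did not lean to either side: of 25 tested, 1 was higher (*Cebpd*, also on the list above) and 2 were lower, with a median of -0.03. The lower ones were *Zbtb16*, a zinc finger transcription factor (4.45 to 12.8 CPM in naive and 3.05 to 6.53 CPM in sham rats, log2 fold-change -0.73, SE 0.27), and *Angptl4*, an inhibitor of lipoprotein lipase (11.5 to 14.5 CPM in naive and 6.71 to 13.3 CPM in sham rats, -0.41, SE 0.18).

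**Figure D3:**
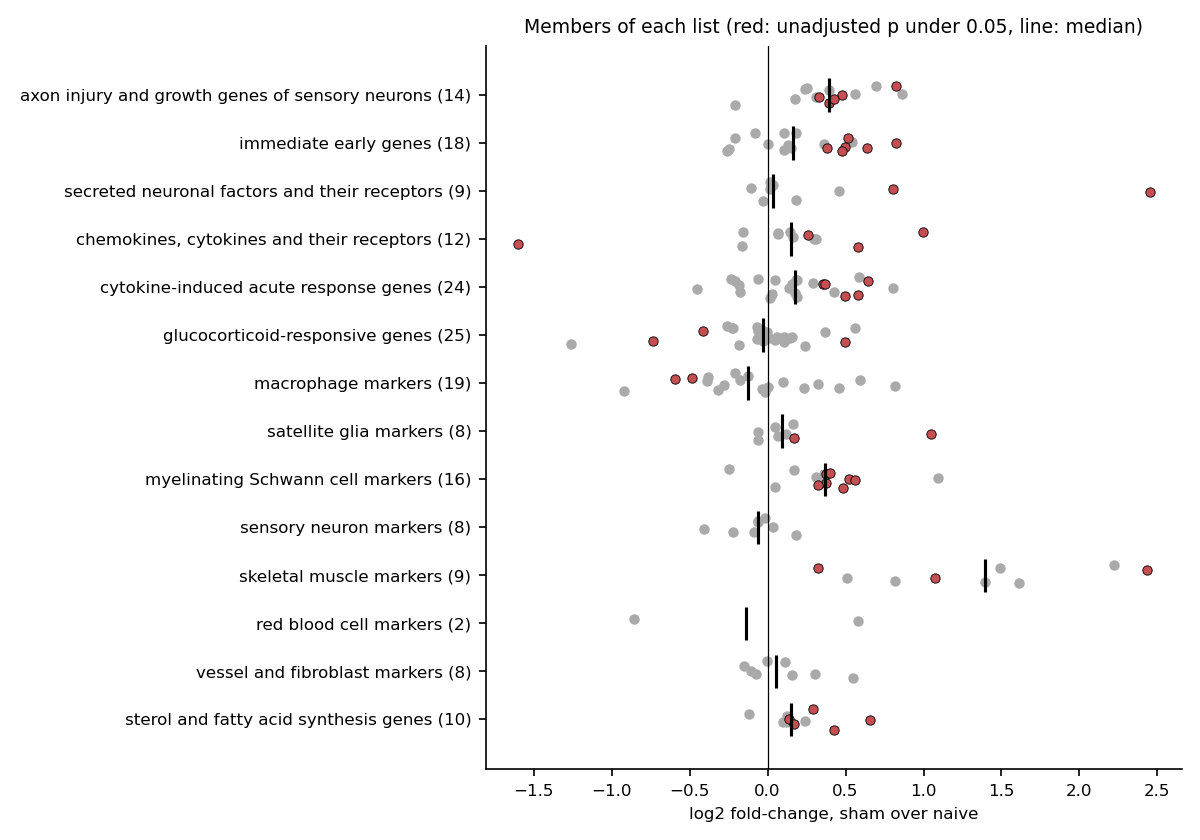
Log2 fold-change of sham over naive rats (x axis) for each tested member of 14 gene lists (y axis, number of members in brackets), with members at an unadjusted p under 0.05 in red and the median as a line. Medians of the axon injury, myelinating Schwann cell, and skeletal muscle lists are the farthest above 0, and those of the red blood cell, macrophage, sensory neuron, and glucocorticoid lists lie below it.

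Further transcripts with a low p and higher levels in sham rats had log2 fold-changes under 1. *Ppp1r1b*, which encodes the phosphatase inhibitor DARPP-32, ranged from 17.6 to 26.9 CPM in naive rats (median 21.2) and 26.0 to 35.5 CPM in sham rats (median 30.9), with 5 of 6 sham rats above every naive rat (log2 fold-change 0.504, SE 0.12). *Spon2*, a secreted matrix protein, ranged from 3.24 to 4.96 CPM in naive rats (median 3.98) and 4.42 to 9.88 CPM in sham rats (median 8.16) (0.90, SE 0.22). *Nos3*, the endothelial nitric oxide synthase, had 5.73 to 9.80 CPM in naive and 8.72 to 13.2 CPM in sham rats (0.62, SE 0.17). The ranges of *Spon2* overlapped only through sham rat 3, whereas 3 of 6 sham rats lay within the naive range for *Nos3*. *P3h1*, an enzyme that modifies collagen, had 20.3 to 24.9 CPM in naive and 25.1 to 37.8 CPM in sham rats (0.42, SE 0.11). The DNA repair nuclease *Apex2* had 3.71 to 5.36 CPM in naive and 5.87 to 9.12 CPM in sham rats (0.61, SE 0.18), and the zinc finger gene *Zfp84* 3.62 to 6.85 CPM in naive and 6.88 to 12.7 CPM in sham rats (0.76, SE 0.22). The groups of these last 3 did not overlap, a gap in this direction that held for 10 of 15153 transcripts (0.0660%). *Appl2* (an endosomal adaptor), *Sirt2* (a deacetylase of myelin-forming cells), *Ncapd3* (a condensin subunit), and *LOC689728* were also higher, with log2 fold-changes from 0.27 for *Appl2* to 0.98 for *LOC689728* and adjusted p of 0.998 in edgeR for each.

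Genes of lipid synthesis were among them. Of 10 tested sterol and fatty acid genes, out of 39 listed, 5 were higher at an unadjusted p under 0.05 and 0 lower, with a median log2 fold-change of 0.15. Of all transcripts with a symbol, 4.99% were higher at this p. *Dgat2* and *Elovl1* had also been picked by their low p. *Dgat2*, the last step of triglyceride synthesis, ranged from 6.58 to 10.7 CPM in naive rats (median 7.02) and 8.84 to 14.8 CPM in sham rats (median 11.5) (0.65, SE 0.17, unadjusted p 0.00171). *Elovl1*, an elongase of very long chain fatty acids, ranged from 24.96 to 36.6 CPM in naive rats (median 31.2) and 33.2 to 47.2 CPM in sham rats (median 42.4) (0.42, SE 0.11, unadjusted p 0.00127). In both, 5 of 6 sham rats were above every naive rat. The sterol carrier *Stard4*, the desaturase *Scd2*, and the sterol enzyme *Nsdhl* had log2 fold-changes of 0.29 (SE 0.10), 0.13 (SE 0.05), and 0.17 (SE 0.07).

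Transcripts that were lower in sham rats had mostly small differences at moderate levels. *Ubox5*, a ubiquitin ligase of the U-box family, ranged from 44.1 to 52.2 CPM in naive rats (median 47.6) and 35.3 to 43.0 CPM in sham rats (median 37.5), with all 6 sham rats below all 6 naive rats, as for 14 of 15153 transcripts (0.0924%). Its log2 fold-change was -0.33 (SE 0.08, unadjusted p 9.81e-04, adjusted p 0.998 in edgeR). *Rem2*, a small GTPase that restrains voltage-gated calcium channels, ranged from 28.8 to 40.9 CPM in naive rats (median 38.9) and 18.9 to 38.1 CPM in sham rats (median 27.2), with 5 of 6 sham rats below every naive rat (-0.45, SE 0.14). *Ebf3*, a transcription factor of the developing nervous system, had 94.3 to 119.9 CPM in naive and 73.8 to 99.7 CPM in sham rats (-0.29, SE 0.08). The cytokine gene *Il17d* had 7.08 to 14.1 CPM in naive and 5.66 to 9.55 CPM in sham rats (-0.58, SE 0.18), with sham rat 3 the only sham rat within the naive range. *Fbxl16*, *Slc43a2* (an amino acid transporter), *Ankrd35*, and *Pygb* (a glycogen phosphorylase) had log2 fold-changes from -0.17 for *Pygb* to -0.41 for *Ankrd35*, and *Ubxn11* had -0.75 (SE 0.23).

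Some of the largest fold-changes came from single transcripts whose level jumped between rats of the same group. The *Pak2* transcript ENSRNOT00000071060, of a p21-activated kinase, ranged from 0.143 to 0.940 CPM in naive rats (median 0.379) and 0.647 to 8.92 CPM in sham rats (median 4.35). Sham rats 6, 3, and 1 had 6.25 CPM or more, and sham rats 2 and 4 had 0.647 and 1.28 CPM, against 0.940 in the highest naive rat (log2 fold-change 3.30, SE 0.66, unadjusted p 1.39e-04, adjusted p 0.656 in edgeR). For *Iars1*, an isoleucyl-tRNA synthetase, sham rats 2 and 3 had 22.2 and 12.7 CPM and the other 10 rats at most 2.65 (2.72, SE 0.77). Both named transcripts of *Pdcd5*, a gene tied to programmed cell death, were among those with a low p, in opposite directions. ENSRNOT00000017708 was at 18.0 and 13.9 CPM in sham rats 1 and 2 and at most 3.12 in the other 10 rats (3.32, SE 0.78), and ENSRNOT00000074804 was at 16.0 CPM in naive rat 1 and at most 1.61 in the other 11 (-2.77, SE 0.83). Summed, the pair was at 16.5 CPM in naive rat 1, 18.4 and 14.2 in sham rats 1 and 2, and at most 3.55 in the rest, so the groups overlapped. *Calcoco1*, an autophagy receptor, and *Pnpla2*, a triglyceride lipase, were lower in the same manner, with naive rats 2 and 5 at 12.7 and 9.55 CPM for *Calcoco1* and naive rat 4 at 17.9 CPM for *Pnpla2*, and their exact permutation p was 0.0693 and 0.141. Counts per transcript may divide or lose the reads that isoforms of a gene share, and how far this set these values was not tested.

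Neurons and their covering cells were measured by marker lists. Sensory neuron markers were level, with 0 of 8 at an unadjusted p under 0.05 in edgeR in either direction, 0 at an adjusted p, a median log2 fold-change of -0.06, and sums of 35927 to 47222 CPM in naive rats (median 43169) and 35078 to 44299.9 CPM in sham rats (median 41089.7). *Nefl* and *Nefm*, neurofilament subunits, had log2 fold-changes of -0.06 (95% interval -0.20 to 0.08) and -0.08 (-0.28 to 0.11). Of 8 satellite glia markers, *Gfap* and *Sparc* were higher at an unadjusted p under 0.05. *Gfap*, the intermediate filament of reactive glia, ranged from 14.1 to 30.4 CPM in naive rats (median 21.3) and 13.1 to 134 CPM in sham rats (median 31.0), and its log2 fold-change of 1.05 (SE 0.44) rested on sham rat 1, the rat at 134 CPM: it was 0.31 without that rat. *Sparc* differed by 0.17 (SE 0.08).

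Some markers of myelin and of muscle were higher in sham rats. Of 16 tested markers of myelinating Schwann cells, 15 had positive log2 fold-changes, 7 were higher at an unadjusted p under 0.05 and 0 at an adjusted p, and 0 were lower, with a median log2 fold-change of 0.37 and sums of 1977 to 3362 CPM in naive rats (median 2686) and 2482 to 5235 CPM in sham rats (median 3218). *Prx*, a scaffold protein of peripheral myelin, ranged from 604 to 1104 CPM in naive rats (median 898) and 792 to 1770.0 CPM in sham rats (median 1084) (0.37, SE 0.17). The other 6 were *Ugt8* and *Fa2h* (enzymes of myelin lipids), *Mal*, *Gjb1*, *Cnp*, and *Pllp*, at 0.32 (*Cnp*) to 0.56 (*Ugt8*). Markers of skeletal muscle, a tissue outside the ganglion, had positive log2 fold-changes in 9 of 9, with a median of 1.40. In edgeR, 3 of them were at an unadjusted p under 0.05 (*Mb*, *Des*, and *Pgam2*) and 0 at an adjusted p. *Pgam2* was at 18.1 CPM or more and *Des* at 6.67 CPM or more in every rat, also in those with *Mb* at 0. Sums of the muscle markers were 50.02 to 308 CPM in naive rats (median 81.4) and 57.5 to 737 CPM in sham rats (median 173), with 737 CPM in sham rat 4, 495 in sham rat 1, and 308 in naive rat 6. *Acta1*, skeletal muscle actin, ranged from 12.1 to 162 CPM in naive rats (median 33.0) and 17.2 to 406 CPM in sham rats (median 85.4), and myoglobin (*Mb*) from 0 to 4.82 CPM in naive rats (median 0.829) and 0 to 32.1 CPM in sham rats (median 2.11). Without these 3 rats, an alternative chosen after the data were seen, 0 myelin markers were higher and 1 was lower, with a median of 0.11, and *Gfap* was at 0.08. These sham rats also had the highest myelin sums (5235 and 3540 CPM) and *Gfap* levels of the sham rats. Naive rat 6 had the lowest myelin sum of the naive rats (1977 CPM). Leaving them out therefore lowers the myelin difference by the choice of rats, and a tie of myelin to muscle transcripts was not tested. In the same alternative the axon injury list had 7 of 14 higher with a median of 0.52. The log2 fold-changes of *Ccl2*, *Vgf*, *Alkal2*, and *Jun* were 1.28, 1.04, 2.63, and 0.61, as large as with all rats or larger. *Ccl2* and *Vgf* then passed the threshold in edgeR's quasi-likelihood test (adjusted p 0.0145 for both). However, sham rats 1 and 4 were the lowest sham rats for *Ccl2*, *Vgf*, *Jun*, and the axon injury sum, and sham rat 1 for *Alkal2*. Naive rat 6 was the highest naive rat for *Ccl2* and *Vgf*. Leaving these rats out therefore widens these differences by the choice of rats, and the values are no separate support.

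**Figure D4:**
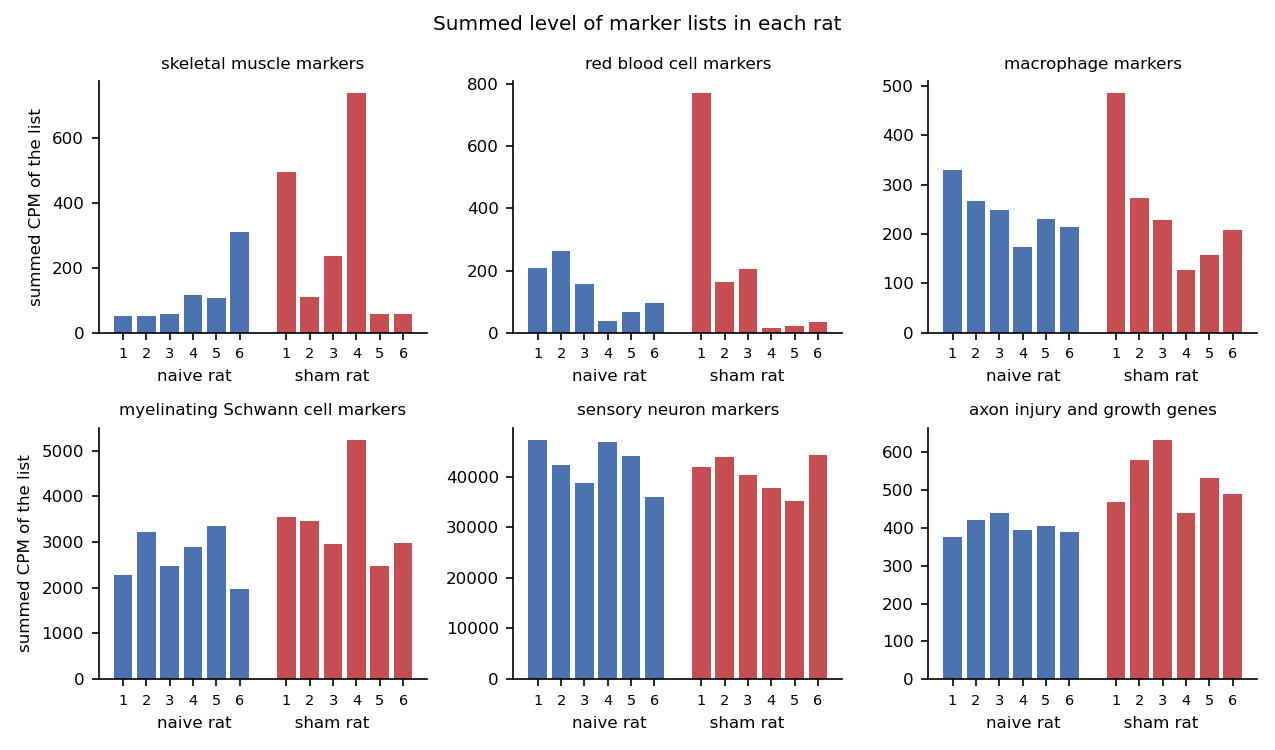
Summed level of 6 marker lists in CPM (y axes, from 0) in each naive (blue) and sham (red) rat (x axes, rats 1 to 3 male and 4 to 6 female). Muscle markers are highest in sham rats 4 and 1 and naive rat 6, red blood cell markers in sham rat 1, and myelin markers in sham rat 4, whereas neuron markers are nearly even.

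Blood and immune cells were uneven between rats of both groups. Macrophage markers summed to 174 to 329.5 CPM in naive rats (median 239) and 128 to 485 CPM in sham rats (median 219), highest in sham rat 1 and lowest in sham rat 4. Of 19 tested, 0 were higher and 2 were lower at an unadjusted p under 0.05, both of antigen presentation: *Cd74* (23.4 to 37.2 CPM in naive and 14.1 to 28.4 CPM in sham rats, log2 fold-change -0.48, SE 0.16) and *RT1-Da* (6.58 to 18.1 CPM in naive and 6.25 to 12.1 CPM in sham rats, -0.59, SE 0.23). The median of the list was -0.13, but it moved with the rats and the fit. It was 0.20, with 2 higher and 0 lower, without sham rats 4 and 5, -0.26 without sham rats 1 and 4 and naive rat 6, -0.35 with sex as a covariate, and -0.33 with the rat number as a block. The macrophage gene *Lyz2* had 75.2 to 153 CPM in naive and 52.7 to 305 CPM in sham rats. The 2 hemoglobin transcripts summed to 38.9 to 264 CPM in naive rats (median 126) and 13.5 to 771 CPM in sham rats (median 99.5), and 0 of 2 reached an unadjusted p of 0.05 in edgeR. Markers of vessels and fibroblasts overlapped between groups, with 0 of 8 at this p, 0 adjusted, and a median of 0.05.

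The difference between sham and naive rats was then compared between the sexes. The interaction of sham surgery and sex had 0 of 15153 transcripts at an adjusted p under 0.05 in edgeR (lowest 0.631). At an unadjusted p under 0.05 it had 667 (4.40%), below the share of 0.05 that this threshold gives with no interaction. DESeq2 without a prior had 9 at an adjusted p under 0.05, with no threshold on the fold-change. *Alkal2* had a log2 fold-change of 2.68 (95% interval 1.35 to 4.003) in males and 2.33 (1.05 to 3.61) in females. *Ccl2* had 1.09 (95% interval 0.49 to 1.69) in males and 0.91 (0.31 to 1.51) in females, *Vgf* 0.89 (95% interval 0.37 to 1.41) in males and 0.72 (0.20 to 1.24) in females, and *Jun* 0.53 (95% interval 0.22 to 0.85) in males and 0.42 (0.11 to 0.73) in females. The unadjusted interaction p of these 4 lay between 0.593 and 0.679 in edgeR, and the intervals are wide enough to hide a difference of the size of the effect itself. Of 99 transcripts followed by name (the leading ones, list members at an unadjusted p under 0.05, and markers), 6 (6.06%) had an unadjusted interaction p under 0.05, and 0 had an adjusted one in edgeR (lowest 0.921). The hemoglobin transcript *Hbb* had 0.89 (95% interval -0.18 to 1.96) in males and -1.61 (-2.73 to -0.48) in females, with an interaction p of 0.00389, and the macrophage marker *Cd14* had 0.60 (95% interval -0.53 to 1.74) in males and -1.64 (-2.83 to -0.45) in females, with 0.0109. ENSRNOT00000074804 of *Pdcd5*, with its single high naive male, had -4.06 (95% interval -6.32 to -1.81) in males and -0.53 (-2.59 to 1.53) in females, with 0.0235. The others were *Mb*, *Glul*, and *Mag*, at interaction p of 0.0197 to 0.0463.

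**Figure D5:**
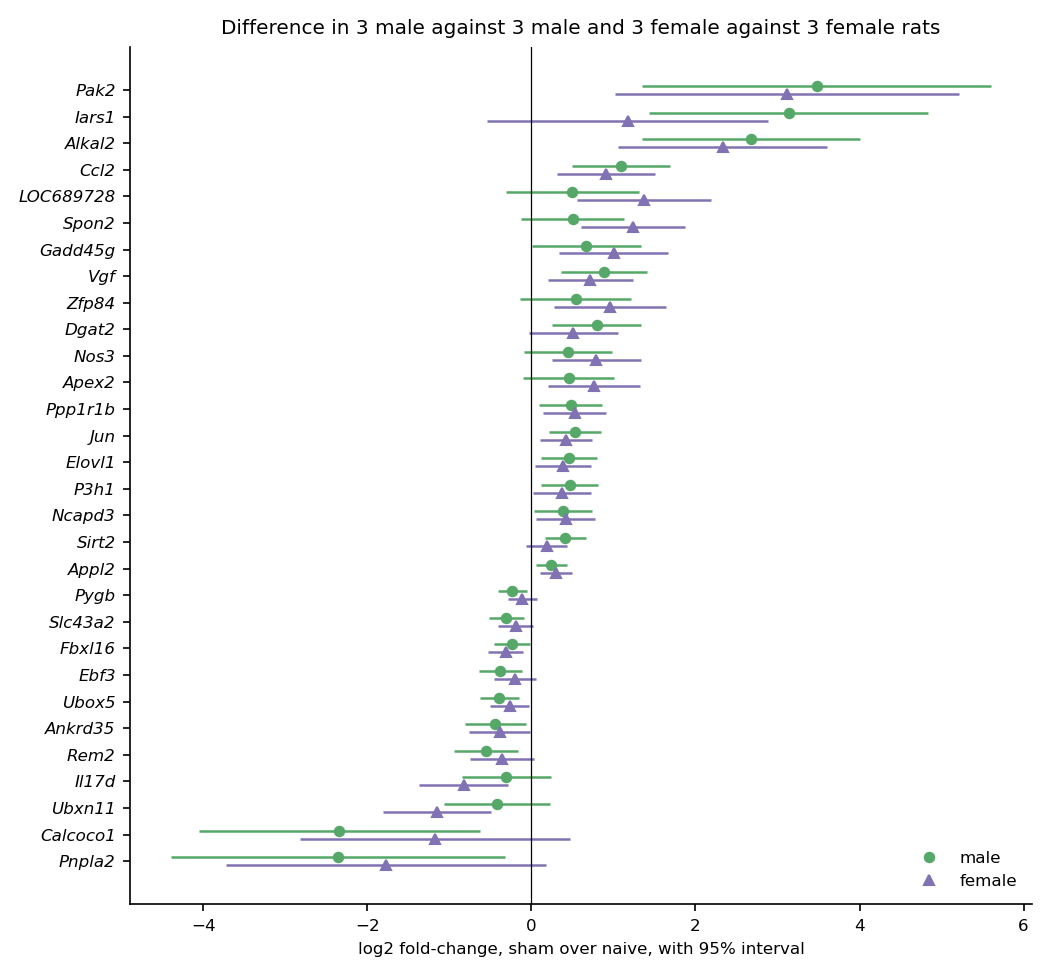
Log2 fold-change of sham over naive rats (x axis) with its 95% interval, separately in males (green circles) and females (purple triangles), for 30 transcripts named by their p (y axis). Each estimate compares 3 rats with 3, and in every row the 2 estimates have the same sign and intervals that overlap. The rows were chosen by their p in the same rats with both sexes together, which favors estimates of the same sign. The *Pdcd5* transcripts are not drawn.

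Levels in TKA rats are given side by side for the leading transcripts. The naive rats are shared by both comparisons, and TKA levels were scaled with the naive rats alone. TKA rat 2 stood apart from the other 5 in its markers as well: *Isl1*, of sensory neurons, was at 6.99 CPM against 60.0 to 90.8 CPM, and *Calca* at 70.6 against 454 to 697 CPM, whereas the muscle transcripts *Acta1* and *Ckm* were at 6026 and 1385 CPM against 22.2 to 645 CPM and 6.88 to 118 CPM. The part of these in its low levels of other transcripts was not tested. *Alkal2* was at 30.01 to 50.3 CPM in those 5 and at 0 in TKA rat 2, against at most 18.0 in a sham rat. *Ccl2* was at 30.4 to 57.0 CPM and at 0.522 in TKA rat 2, so the lowest of the 5 lay within the sham range. *Vgf* was at 91.8 to 149.7 CPM and 37.2, and *Jun* at 207 to 466 CPM and 132. *Gadd45g* was at 22.8 to 48.4 CPM, with 14.6 in TKA rat 2. The *Pak2* transcript was at 0.559 to 0.949 CPM and 1.15, near the naive rats and below 5 of 6 sham rats. Published as different between TKA and sham rats were 56 transcripts, a list chosen with these sham rats and so not independent of them. Of the 56, 6 were higher and 0 lower in sham than naive rats at an unadjusted p under 0.05. Among all transcripts with a symbol, 4.99% were higher and 2.13% lower. The 6 were *Steap4*, *Il1r1*, *Socs3*, *Pak2*, *Cebpd*, and *Zmiz2*, and the median log2 fold-change of the 56 was 0.08. The study lists *Pak2* and *Zmiz2* as lower in TKA than sham rats and the others of the 6 as higher. *Zmiz2* varied within groups, at 1.90 to 13.15 CPM in naive and 2.39 to 16.7 CPM in sham rats.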

How the data were processed

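Bulk mRNA of the L3 and L4 DRGs was sequenced by the authors as paired-end reads of 150 bp, with 1 library per rat. Per the submitters' processing notes and the methods, reads were aligned to rn6 with HISAT2, and the deposited values are raw featureCounts counts per Ensembl transcript, with no normalization. The strand and overlap settings, the annotation release, and tool versions are not given in the sources used here, so reads shared by isoforms or overlapping genes may be divided or lost. The table holds no gene names. Symbols of 3837 transcripts came from published result lists, 1 of them shortened to 1999 rows for sham against naive rats, and 3149 of these were tested. No 2 of the 12 libraries had the same counts (lowest chi-square per degree of freedom 10.6, median 23.1).

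The 6 sham and 6 naive rats were fitted with edgeR 4.0.16 in R 4.3.3 (filterByExpr, TMM, quasi-likelihood F test, Benjamini-Hochberg adjustment over all 15153 transcripts tested). Standard errors are the log2 fold-change over the square root of F. Log2 CPM used a prior count of 2. Exact permutation tests used all 924 splits, two-sided for single transcripts and one-sided for the pseudo-F of whole profiles. The threshold was an adjusted p under 0.05 with a fold-change of at least 1.5. The alternatives tried were limma 3.58.1 voom with quality weights, DESeq2 1.42.0 (a prior on or off), RLE scaling, other filters, a robust fit, all 3 groups together, sex as a covariate, the rat number as a block, each sex alone, and leaving rats out. The code was tested on simulated counts.

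Named transcripts are the 5 at the top of the published list for these groups, those with a symbol, a mean of at least 1 CPM, and the lowest p (20 higher and 12 lower), members of 15 lists with an unadjusted p under 0.05, and the markers with the highest counts in each cell type list. One marker of myelinating Schwann cells is not reported here and was left out of its list. The rats, lists, and rules were chosen with earlier results of these data known. No genome of the files' build was used, and promoters were matched by symbol.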

Additional observations from a re-analysis of the deposited data

Results flagged for a closer look

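A screen covered 198 groups of 6 values, each in naive or sham rats. The values were the log2 CPM of each named transcript, the log2 summed CPM of each list, total counts, and the principal components. In 13 groups 1 rat was farther from the rest than Dixon's critical value for 6 samples, where chance gives about 9.9. None of the 13 was a list sum or a total count. Among single transcripts, the log2 CPM of *Dgat2* was 3.432 in naive rat 5 (next highest 2.952), that of *Nos3* 3.306 in naive rat 2 (next 2.826), that of *Gadd45a* 5.617 in naive rat 4 (next 5.129), and that of *Slc43a2* 6.802 in naive rat 6, below the next at 6.961. In each of these 4 the rat that stood apart lay on the side of the sham rats.

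Sham rat 6 stood apart for 4 transcripts: *Ncapd3* was at 3.936, below the next sham rat at 4.298, and *Zfp84* was at 3.671 (next 3.042), *Ankrd35* at 4.08 (next 3.886), and ENSRNOT00000074804 of *Pdcd5* at 0.3265 (next -0.9522). The same *Pdcd5* transcript was at 4.01 in naive rat 1 against 0.7695 in the next naive rat. *Il17d* was at 3.269 in sham rat 3 (next 2.802).

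Among the components of whole profiles, sham rat 4 was at -92.34 on the second (next lowest -1.666), naive rat 6 at 65.28 on the third (next highest 12.84), and sham rat 5 at -47.24 on the third (next lowest -9.214). Sham rat 4 and naive rat 6 were also among the 3 rats with the highest sum of skeletal muscle transcripts, and whether these set their place on the components was not tested.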

How the results depend on the processing

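The count of called transcripts was 0 in edgeR under every alternative run with all 12 rats and with any 1 rat left out. It was 5 with DESeq2 without a prior and 2 in male rats alone (2 transcripts without a symbol, lower in sham rats). It was 2 (*Ccl2* and *Vgf*) without sham rats 1 and 4 and naive rat 6, an alternative chosen after the data were seen. Those rats held the lowest sham and the highest naive levels of *Ccl2* and *Vgf*, so their removal favors these calls. Transcripts higher at an unadjusted p under 0.05 numbered 377, 998 with no filter on low counts, 179 with all 3 groups in one fit, and 310 to 484 with 1 rat left out. Lower ones numbered 248, 898 with no filter, 373 with DESeq2 without a prior, 106 with all 3 groups, 375 without sham rats 4 and 5, 387 in males alone, and 188 to 370 with 1 rat left out. The higher ones were 60.3% of both, and 52.6% to 63.7% over the alternatives. The cause of these shifts was not tested, beyond the number of transcripts and rats in each fit. The interaction with sex had 9 transcripts at an adjusted p under 0.05 with DESeq2 without a prior, with no threshold on the fold-change. The pseudo-F of whole profiles was 0.709 to 0.990 over its alternatives.

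Rat numbers did not pair the groups: same-numbered rats had correlations of 0.015 to 0.155, and only rat 5 correlated best with its own number. With the number as a block, 0 transcripts were called, 302 were higher, and 256 lower. *Hbb* turned to -0.53 with the block and *Dcn* to 0.0072.

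Of 80 named transcripts, 6 changed direction somewhere, none with an adjusted p under 0.05 in edgeR (*Mb* had an unadjusted p of 0.0496). Without sham rats 1 and 4 and naive rat 6, *Mb* turned to -0.13, *Lyz2* to -0.11, *Hbb* to -0.44, and *Lum* to 0.047. Without sham rats 4 and 5, *Nefm* turned to 0.015, *Dcn* to 0.13, and *Lum* to 0.18. In females alone *Lyz2* was -0.22, *Hbb* -1.61, and *Dcn* 0.18, with voom *Hbb* -0.28 and *Dcn* 0.042, with sex as a covariate *Hbb* -0.31 and *Dcn* 0.018, and with a mean of at least 50 counts *Dcn* 0.0020. Leaving out 1 rat gave -0.21 to 0.40 for *Lyz2*, -0.64 to 0.89 for *Hbb*, and up to 0.096 for *Dcn*. Depth limited transcripts under 1 CPM, whose median standard error was 0.68.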

Other observations

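A transcript of *Erbb2*, the receptor tyrosine kinase that answers neuregulins together with Erbb3 in Schwann cells, was left out of edgeR's test by its filter on low counts. ENSRNOT00000071765 had 0 to 12 counts in naive rats and 6 to 164 in sham rats, or 0 to 0.536 CPM and 0.289 to 7.38 CPM. Sham rats 4, 6, 5, and 3 were above every naive rat, and sham rats 1 and 2 were within the naive range. DESeq2 without a prior gave a log2 fold-change of 4.43 (SE 0.86, adjusted p 0.00213).

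Beyond the transcripts named by their p, others with a symbol also had groups that did not overlap, and they were picked for that after their values were seen. Of all 15153 transcripts, 10 had every sham rat above (0.0660%) and 14 every sham rat below (0.0924%). Together these shares are below 0.00216, the chance of such a gap in the exact permutation test for a transcript without a difference. *Nppa*, which encodes atrial natriuretic peptide, was at 4.60 to 9.42 CPM in naive and 9.52 to 14.3 CPM in sham rats (log2 fold-change 0.53, SE 0.19). *Gdpd3*, a phospholipase, was at 0.392 to 2.10 and 2.19 to 3.93 CPM (1.14, SE 0.35), and *Med27*, a Mediator subunit, at 33.6 to 40.9 and 41.4 to 52.2 CPM (0.26, SE 0.08). Lower in every sham rat were *Sdf4*, a calcium-binding protein of the Golgi, at 151 to 165 CPM in naive and 137 to 149.998 CPM in sham rats (-0.14, SE 0.05), and *Dnase1* at 0.985 to 1.69 and 0.171 to 0.849 CPM (-1.14, SE 0.44). The adjusted p of each was above 0.6 in edgeR.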
